A study of Mus musculus with 9 samples.

Results

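The genes described here encode the enzymes of glycolysis, of the pentose phosphate pathway and of the TCA cycle with the enzymes that feed it pyruvate or draw on its citrate. They were chosen as a list of 50 gene symbols, and each was read from the probe set naming that gene alone, the brightest over the 9 arrays where several did. Of the 50, 47 were measured out of 19938 genes in all: 17 of 19 glycolytic genes, 6 of 7 pentose phosphate genes and 24 of 24 TCA genes. Gpi1, Eno1 and G6pdx had no probe set of their own in the annotation used and were not analysed here. The study measured gene expression in mouse dendritic cells, which were differentiated for 8 days from bone marrow-derived progenitors, on 9 arrays in 3 groups of 3 independent cultures. Wild-type cells, which were untransduced, were either left unstimulated or given bacterial lipopolysaccharide (LPS, a ligand of Toll-like receptor 4) at 100 ng/ml for 4 h. The last group carried a short hairpin RNA against JmjD2d in the retroviral vector pSir-delta U6CHisD, was selected in 2 mM histidinol and received the same LPS. All 3 groups came through progenitor culture in SCF, IL-3 and IL-6 (20 ng/ml each) and through GM-CSF, given as 4% X63-GMCSF supernatant, with 5 ng/ml SCF for the first 4 days. JmjD2d, encoded by Kdm4d, is a demethylase of lysine 9 of histone H3. Transduction and selection were carried by the knockdown group alone, and unstimulated knockdown cells and cells with a control hairpin were not analysed here, so that the knockdown cannot be told apart from infection and selection.

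Glycolysis splits glucose into pyruvate in the cytosol, and lactate dehydrogenase can turn that pyruvate into lactate. The pentose phosphate pathway branches off after hexokinase, yielding NADPH in its oxidative steps and exchanging sugar phosphates in its non-oxidative steps. Pyruvate dehydrogenase carries pyruvate into the mitochondrial TCA cycle, and pyruvate dehydrogenase kinases switch that complex off. In activated dendritic cells and macrophages these pathways are known for a shift towards glycolysis, and for the diversion of cis-aconitate to itaconate by the enzyme that Acod1 encodes.

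Kdm4d had log2 values of 7.79, 7.54 and 7.74 in wild-type cells after LPS and of 7.43, 7.11 and 7.40 in knockdown cells, a log2 difference of -0.37 (SE 0.13, limma adjusted p = 0.278) that did not pass the test although the values did not overlap. Itgax, the CD11c integrin chain of dendritic cells, lay between 12.29 and 13.30 on the 9 arrays, and Adgre1, the F4/80 antigen of macrophages, between 12.96 and 13.55. The mean log2 value of 10 dendritic cell markers was 9.37 to 10.19 in unstimulated, 9.40 to 10.19 in LPS-treated and 8.92 to 9.52 in knockdown cells. The mean of 9 macrophage markers was 11.77 to 12.12, 11.79 to 12.19 and 11.30 to 11.95 in the same order, that of 10 neutrophil markers 8.38 to 9.72, 8.92 to 10.58 and 7.73 to 9.94, and that of 7 lymphocyte markers 5.70 to 5.85 over all arrays. That of 10 mast cell and basophil markers was 6.67 to 6.95, 7.05 to 7.45 and 6.31 to 6.68, and that of 9 proliferation genes 9.01 to 9.76, 9.18 to 9.62 and 9.71 to 9.92. After LPS in wild-type cells 0 to 2 genes of each list rose and 0 or 1 fell, where 3.99% and 6.86% of all genes did so. Against wild-type cells after LPS, 0 marker genes passed in knockdown cells. At a raw p under 0.05, 5 of 9 proliferation genes were higher and 1 lower, and 0 of 10 mast cell and basophil markers were higher and 5 lower. These counts were 1 and 3 for dendritic cell, 0 and 3 for neutrophil, 1 and 2 for macrophage and 0 and 2 for lymphocyte markers. Over all genes 7.32% were higher and 5.79% lower at that raw p. A fit that pairs arrays by replicate number called 3 dendritic cell, 1 neutrophil and 3 mast cell markers lower and 4 proliferation genes higher. That fit called 1.24% of all genes lower and 1.51% higher. Replicate 2 had the lowest dendritic cell and neutrophil means of each group. The mast cell and proliferation lists separate the knockdown arrays from the wild-type arrays after LPS. Within each of the 3 numbered pairs the dendritic cell, neutrophil and mast cell means were lower in knockdown cells and the proliferation mean higher. Irf4, a transcription factor of dendritic cells, differed by -2.04, -2.19 and -2.81 in these pairs (adjusted p = 0.124, paired 0.00601). The markers moved with the knockdown in this way, and their part in the results below was not tested. Values on this scale have no zero, so no marker can be called absent, and in bulk RNA fewer cells of a type and less RNA per cell cannot be told apart.

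Each group of pathway genes is set beside the same count over all genes, because LPS moved many genes. A change here means a Benjamini-Hochberg adjusted p under 0.05 over the 19938 genes in a limma fit of all 9 arrays. After LPS in wild-type cells 1 of 17 glycolytic genes rose and 0 fell, 0 of 6 pentose phosphate genes rose or fell, and 1 of 24 TCA genes rose while 7 fell. Over all genes 3.99% rose and 6.86% fell. The median log2 difference was -0.01 for glycolysis, -0.21 for the pentose phosphate pathway and -0.32 for the TCA genes, against 0.04 over all genes. In knockdown against wild-type cells after LPS, 2 TCA genes were higher and 1 lower, and 0 genes of the other pathways passed, where 0.401% of all genes were higher and 0.361% lower. With arrays paired by number 3 TCA genes were higher and 1 lower, against 1.51% and 1.24% of all genes.

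**Figure D1:**
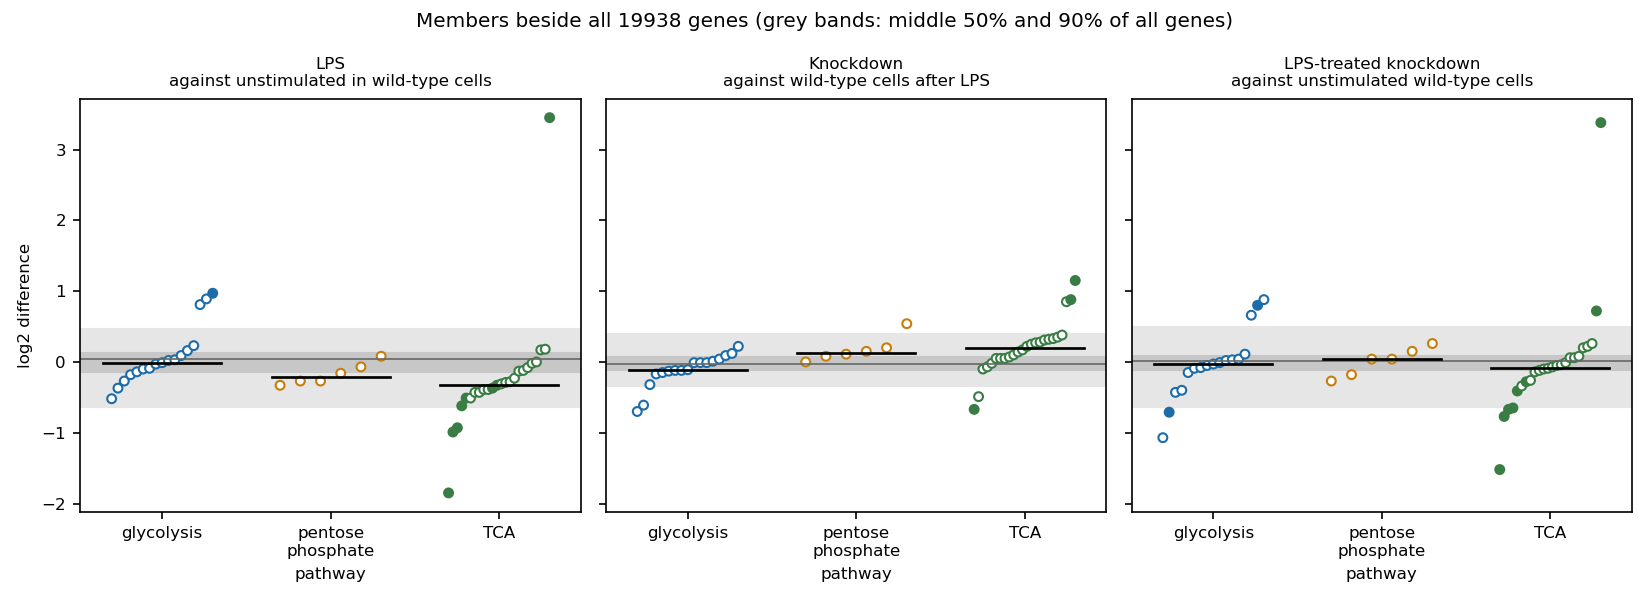
Log2 differences of the 47 members (points, filled where the adjusted p is under 0.05) by pathway in 3 comparisons, with the median of each pathway as a black line and the middle 50% and 90% of all 19938 genes as grey bands. The TCA median sits at -0.32 after LPS in wild-type cells and at 0.19 in knockdown against wild-type cells, while the glycolytic medians sit at -0.01 and -0.11.

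Start-site sequences are shown for the genes with the largest change in their pathway or comparison: Hk2 in glycolysis, Pdk2 and Acod1 among the falls and rises of the TCA group, and Suclg2, which differed most between knockdown and wild-type cells. They are the 250 bases before the first listed RefSeq start (GRCm38.p6), written 5′ to 3′ on the gene's strand: Hk2 at chr6:82774455-82774704 (minus strand), Pdk2 at chr11:95041372-95041621 (minus), Acod1 at chr14:103046762-103047011 (plus) and Suclg2 at chr6:95718847-95719096 (minus). Capitals mark ACGTG, a core of the hypoxia response element bound by HIF-1, or a pair of GAAA runs with any 2 bases between them, a pattern bound by interferon regulatory factors, on either strand.
Hk2: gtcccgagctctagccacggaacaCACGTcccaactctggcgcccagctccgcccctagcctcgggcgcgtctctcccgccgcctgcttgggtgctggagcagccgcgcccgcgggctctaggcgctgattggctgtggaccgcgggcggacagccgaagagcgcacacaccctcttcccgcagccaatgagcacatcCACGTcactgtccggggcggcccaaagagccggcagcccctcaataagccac
Pdk2: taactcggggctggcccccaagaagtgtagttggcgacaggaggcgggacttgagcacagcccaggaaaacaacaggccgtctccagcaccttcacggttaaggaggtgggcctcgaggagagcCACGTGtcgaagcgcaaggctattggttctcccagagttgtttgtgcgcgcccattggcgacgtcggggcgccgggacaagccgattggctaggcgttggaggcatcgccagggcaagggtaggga
Acod1: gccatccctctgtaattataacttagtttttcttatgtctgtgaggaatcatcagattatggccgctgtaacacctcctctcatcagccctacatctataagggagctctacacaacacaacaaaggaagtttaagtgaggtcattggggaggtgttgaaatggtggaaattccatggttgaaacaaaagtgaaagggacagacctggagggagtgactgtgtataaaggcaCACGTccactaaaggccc
Suclg2: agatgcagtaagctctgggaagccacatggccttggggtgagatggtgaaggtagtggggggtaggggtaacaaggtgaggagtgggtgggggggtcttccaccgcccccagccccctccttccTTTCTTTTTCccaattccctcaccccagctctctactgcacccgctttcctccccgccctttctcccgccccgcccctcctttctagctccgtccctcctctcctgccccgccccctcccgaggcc
ACGTG occurred at 2 places in the Hk2 window, 226 and 52 bases before the start, and once in that of Acod1, 18 bases before it. In Pdk2 both strands match at overlapping positions, since the letters form the palindrome CACGTG, and Suclg2 held only the paired GAAA pattern.

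Promoters were listed for 49 of the 50 genes, measured or not, all but Idh3a. ACGTG was found on either strand in 7 of 19 glycolytic windows (36.8%), 0 of 7 pentose phosphate windows and 8 of 23 TCA windows (34.8%), against 16.6% of all 27025 genes. The glycolytic genes with it were Hk2, Hk3, Pfkfb3, Pfkm, Pgam1, Pgk1 and Ldha, of which Hk2 alone changed after LPS in wild-type cells. Windows of the 3 pathways were richer in G and C, with medians of 56.4%, 59.6% and 61.6% against 52% over all genes. CACGTG, which contains ACGTG, was in 2 glycolytic windows and 1 TCA window, against 6.05% of all genes. The paired GAAA pattern was in 1 pentose phosphate window, that of Rpe, and 1 TCA window, that of Suclg2, against 3.04% of all genes. A match describes letters in the window and is not a measured binding site.

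The first comparison asks how wild-type cells responded to LPS, and within glycolysis 1 of the 3 hexokinase genes rose. Hk2, the inducible hexokinase that traps glucose as glucose 6-phosphate, had log2 values of 10.13, 10.15 and 9.69 (replicates 1 to 3) in unstimulated cells and of 10.97, 10.98 and 10.93 after LPS. All 3 LPS values lay above all unstimulated values, the lowest of which was replicate 3. Hk2 rose by a log2 difference of 0.97, or 1.96-fold (SE 0.12, 3 arrays a group, adjusted p = 0.00319). Of the other hexokinases, Hk1 had a difference of -0.18 (adjusted p = 0.129) and Hk3, the myeloid isoform, of -0.10 (adjusted p = 0.717).

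The phosphofructokinase step commits sugar to glycolysis. Pfkl, its liver-type subunit, had values of 9.61, 10.40 and 9.49 before LPS and of 10.49, 10.80 and 10.65 after it. The groups did not overlap, and replicate 2 stood highest in both. The difference of 0.81 (SE 0.23) missed the threshold (adjusted p = 0.0628). It passed when each LPS array was set against the unstimulated array of its own number (adjusted p = 0.0114), called the paired fit here. The differences within the 3 pairs were 0.88, 0.40 and 1.16. Pfkfb3, which makes the activator fructose 2,6-bisphosphate, had values of 9.30, 9.82 and 8.89 before and of 10.03, 10.65 and 10.00 after LPS. These groups too did not overlap, and the highest array of each was replicate 2. Its difference was 0.89 (SE 0.25, adjusted p = 0.0594, paired 0.0187). Pfkfb4, a related bifunctional enzyme, lay in the other direction, at 9.73, 9.79 and 9.74 before and 9.14, 9.47 and 9.11 after LPS. No LPS value reached the unstimulated ones, and the difference was -0.52 (SE 0.19, adjusted p = 0.127, paired 0.0464). The muscle and platelet subunits Pfkm and Pfkp had differences of -0.14 and 0.23 (adjusted p = 0.398 and 0.274).

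The lower part of glycolysis, from aldolase to lactate dehydrogenase, held 0 changed genes of the 9 measured, by limma and in the paired fit alike, and none reached an unadjusted p under 0.05. Pkm, the pyruvate kinase, had values of 12.20, 12.68 and 12.30 before and of 11.91, 12.28 and 12.17 after LPS, and the groups overlapped (difference -0.27, SE 0.14, adjusted p = 0.267). Ldha, the lactate dehydrogenase subunit that favours lactate, had values of 13.15, 13.33 and 13.05 before and of 13.10, 13.31 and 13.09 after LPS. These are level with each other array by array, and the difference of -0.01 has a 95% interval of -0.24 to 0.21. Aldoc, a second aldolase, had the largest standard error of the glycolytic genes, with values of 11.17, 9.85 and 10.36 before and 10.62, 9.79 and 9.88 after LPS (difference -0.37, SE 0.34, adjusted p = 0.516). The other members of this stretch, Aldoa, Tpi1, Pgk1, Pgam1, Eno2 and Ldhb, had differences between -0.09 and 0.16. Eno2 and Ldhb lay at 6.52 to 6.86 and 6.66 to 6.97, below the median of every array, so a fall in them could be missed. Gapdh, like Eno1, had no probe set of its own. With the replicate block 3 glycolytic genes passed as higher and 1 as lower, where 5.19% and 9.57% of all genes passed.

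In the pentose phosphate pathway no measured gene changed after LPS by the adjusted test, while 0 lay above and 3 below at a raw p under 0.05, as did 10.3% and 16% of all genes. Taldo1, the transaldolase of the non-oxidative branch, came closest, with values of 10.28, 10.10 and 10.40 before and 9.99, 9.78 and 10.02 after LPS. Every LPS value was below every unstimulated value. The difference was -0.33 (SE 0.09, adjusted p = 0.0563), and it passed in the paired fit (adjusted p = 0.028), in which the 3 pairs differed by -0.29, -0.32 and -0.38. Tkt, the transketolase that works beside it, had a difference of -0.16 (adjusted p = 0.188), and Rpia, the ribose 5-phosphate isomerase, of -0.27 (adjusted p = 0.218). Pgls and Pgd, the measured enzymes of the oxidative branch, had differences of -0.27 (adjusted p = 0.156) and 0.08 (adjusted p = 0.643). Values of 4 of the 6 genes lay wholly below the unstimulated ones, as did those of 16.5% of all genes.

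**Figure D2:**
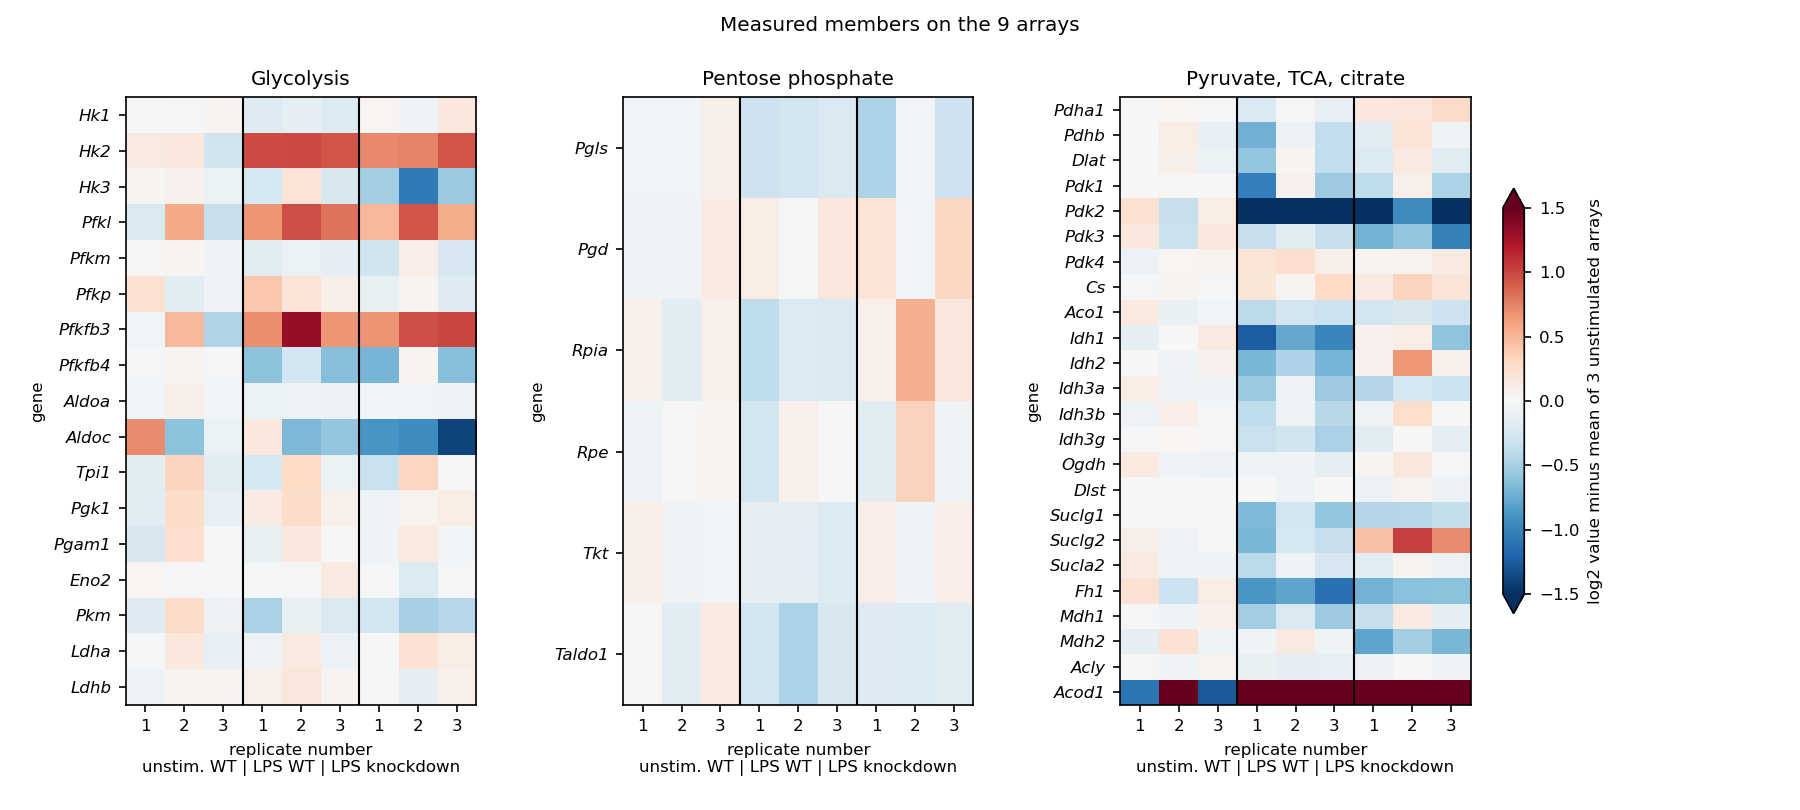
Log2 value of each measured gene on each of the 9 arrays minus the mean of the 3 unstimulated arrays, by pathway; columns are replicates 1 to 3 of wild-type cells without LPS, wild-type cells with LPS and knockdown cells with LPS, and colours stop at 1.5 in both directions. Hk2, Pfkl and Pfkfb3 are red on all LPS-treated arrays, Pdk2 and Fh1 are blue on all of them, and Acod1 is off the scale on unstimulated replicate 2 as well as after LPS.

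The pyruvate and TCA genes held most of the falls, and 21 of the 24 had a difference below 0. Over all genes this was 8040 of 19938. Of 11 measured enzymes of the cycle itself 3 fell, and 4 in the paired fit, where 6.86% and 9.57% of all genes fell. The other TCA genes that fell encode a kinase and NADP-linked or cytosolic enzymes. Pdk2, a kinase that switches off pyruvate dehydrogenase, had values of 9.84, 9.27 and 9.72 before and of 7.76, 7.85 and 7.65 after LPS. The groups stood far apart. Pdk2 fell 3.6-fold (log2 difference -1.85, SE 0.26, adjusted p = 0.00465), the largest fall among the 47 genes. The related kinases did not pass: Pdk1 was at -0.51 (adjusted p = 0.246), Pdk3 at -0.28 (adjusted p = 0.289) and Pdk4 at 0.18 (adjusted p = 0.127). Pdha1, Pdhb and Dlat, subunits of the pyruvate dehydrogenase complex itself, had differences of -0.12, -0.39 and -0.31 (adjusted p from 0.168 to 0.317).

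Of the 5 isocitrate dehydrogenase genes, whose enzymes make 2-oxoglutarate, 3 fell. Idh1, the cytosolic NADP-linked enzyme, had values of 12.41, 12.56 and 12.69 before and of 11.32, 11.79 and 11.58 after LPS, with no overlap, and fell to 50.4% of its unstimulated level (difference -0.99, SE 0.20, adjusted p = 0.0184). Idh2, its mitochondrial NADP-linked counterpart, had values of 10.82, 10.74 and 10.87 before and of 10.12, 10.35 and 10.11 after LPS. Its groups were also separate, and it fell to 65.2% (difference -0.62, SE 0.15, adjusted p = 0.038). Idh3g, a subunit of the NAD-linked enzyme of the cycle, had values of 12.38, 12.43 and 12.38 before and 12.06, 12.10 and 11.91 after LPS. The 3 unstimulated values were nearly level, and Idh3g fell by 0.37 on the log2 scale (SE 0.07, adjusted p = 0.0141). Of the other subunits, Idh3b was at 12.28, 12.46 and 12.33 before and 11.97, 12.28 and 11.94 after LPS. The highest LPS value fell just short of the lowest unstimulated one, and the difference was -0.29 (SE 0.12, adjusted p = 0.164, paired 0.03). Idh3a had a difference of -0.39 (adjusted p = 0.0922).

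Further along the cycle, 1 of the 3 succinyl-CoA ligase genes fell, and so did fumarase. Suclg1, the alpha subunit of succinyl-CoA ligase, had values of 10.65, 10.62 and 10.66 before and of 9.98, 10.36 and 10.06 after LPS. All LPS arrays were lower, replicate 2 least so, and Suclg1 fell by 0.51 on the log2 scale (SE 0.10, adjusted p = 0.0137). Fh1, the fumarase, had values of 11.33, 10.79 and 11.23 before and of 10.24, 10.32 and 10.00 after LPS. The groups did not overlap, and Fh1 fell to 52.6% of its unstimulated level (difference -0.93, SE 0.14, adjusted p = 0.00623). Suclg2 and Sucla2, the beta subunits that pair with Suclg1, had differences of -0.43 and -0.23 (adjusted p = 0.124 and 0.193). Mdh2, the malate dehydrogenase of the cycle, had values of 12.28, 12.65 and 12.36 before and of 12.38, 12.56 and 12.35 after LPS. The LPS values lay within the range of the unstimulated ones, and the difference was 0.00 (95% interval -0.26 to 0.26). Cs, the citrate synthase that opens the cycle, was at 0.17 (adjusted p = 0.23), and Ogdh and Dlst of the 2-oxoglutarate dehydrogenase complex were at -0.08 and -0.02.

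Cytosolic enzymes that share the cycle's metabolites were also lower where they passed. Aco1, the cytosolic aconitase and iron regulatory protein, had values of 11.29, 11.03 and 11.10 before and 10.75, 10.85 and 10.82 after LPS, separate in all arrays, and fell by 0.33 on the log2 scale (SE 0.07, adjusted p = 0.0266). Mdh1, the cytosolic malate dehydrogenase, had values of 11.27, 11.23 and 11.37 before and 10.77, 11.06 and 10.74 after LPS. The groups were separate, and the difference was -0.43 (SE 0.13, adjusted p = 0.071, paired 0.0459). Acly, which cleaves citrate for lipid synthesis and acetylation, had a difference of -0.13 (adjusted p = 0.178).

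Acod1, which makes itaconate from cis-aconitate, was the exception in direction and size. Its values were 9.60, 13.02 and 9.42 in unstimulated cells and 14.06, 14.15 and 14.17 after LPS. Unstimulated replicate 2 stood far above the other unstimulated arrays, though still below all LPS arrays. Acod1 rose 10.9-fold (log2 difference 3.45, SE 0.81, 95% interval 1.58 to 5.31, adjusted p = 0.0318), by 4.46, 1.13 and 4.75 in the 3 numbered pairs. Without unstimulated replicate 2 the difference was 4.62 (adjusted p = 7.58e-07), and without any 1 of the other 5 arrays it did not pass, with adjusted p up to 0.112. Of the 81 genes that rose at least 4-fold after LPS, Acod1 among them, 56 (69.1%) had their highest unstimulated value in replicate 2, against 33.5% of all genes, and the median excess of that array was 0.55 on the log2 scale, against 0.02 over all genes. The highest value of any probe set was 14.56 to 14.66 per array, so Acod1 was close to the top of the scale on all LPS arrays.

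The count of members that fell changed when single arrays were left out and in the paired fit. Leaving out an array can change the calls over all genes too. Those shares are not given here, so the counts do not describe the members alone. Over all 47 genes 7 fell, against 11 in the paired fit (9 of them TCA genes), 4 without LPS replicate 1, 13 without LPS replicate 2, 2 without LPS replicate 3, 4 without unstimulated replicate 1 and 2 without unstimulated replicate 3. The 2 that rose, Hk2 and Acod1, became 4 without unstimulated replicate 2 and 1 without any other array of these groups. Hk2, Pdk2 and Fh1 passed whichever array was left out. Idh3g did not pass without LPS replicate 3 or unstimulated replicate 3, Idh1 without these or LPS replicate 1, and Suclg1 without LPS replicate 3 or unstimulated replicate 1 or 3. Aco1 did not pass without LPS or unstimulated replicate 1 or 3, and Idh2 without any array but LPS replicate 2. Over these 5 genes the adjusted p reached 0.0539 to 0.134.

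**Figure D3:**
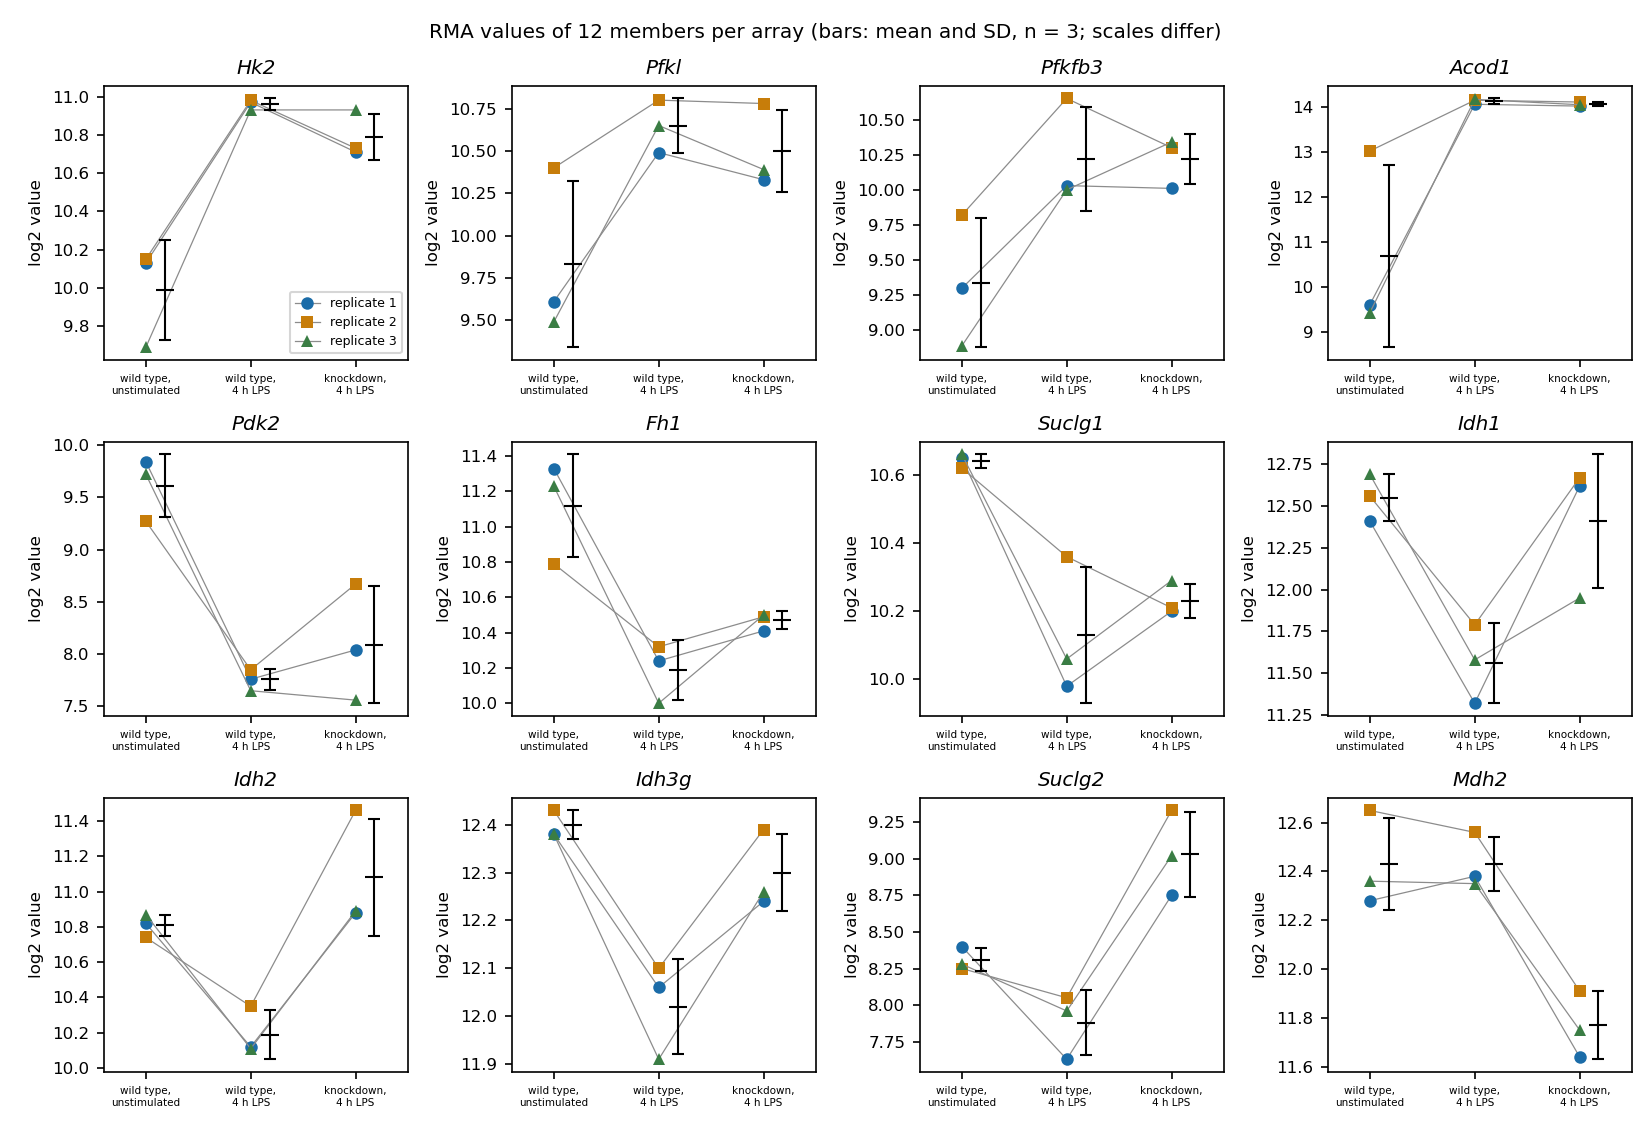
Log2 values of 12 genes on each array (coloured symbols by replicate number, joined across groups), with the mean and SD of each group of 3 as black bars; the vertical scales differ between genes and do not start at 0. Idh2 and Suclg2 lie at 10.11 to 10.35 and 7.63 to 8.05 on the wild-type LPS arrays and at 10.88 to 11.46 and 8.75 to 9.33 in knockdown cells, and Mdh2 is lower in knockdown cells alone.

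The second comparison, the one in the series title, sets knockdown against wild-type cells after LPS. It shares its wild-type LPS arrays with the first, so a low wild-type LPS array lowers the first difference and raises the second. The largest difference was that of Suclg2, the GTP-forming beta subunit of succinyl-CoA ligase, with values of 7.63, 8.05 and 7.96 in wild-type and 8.75, 9.33 and 9.02 in knockdown cells. All knockdown values lay above all wild-type values, including the unstimulated ones at 8.40, 8.25 and 8.28. Suclg2 was higher by 1.15 on the log2 scale, or 2.22-fold (SE 0.16, 3 arrays a group, adjusted p = 0.0215). A second probe set of Suclg2 read 1.03 (SE 0.17, adjusted p = 0.0694 among all probe sets, against 0.0425 for the one used).

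Idh2 was also higher in knockdown cells, at 10.88, 11.46 and 10.89 against 10.12, 10.35 and 10.11 in wild-type cells. The groups were separate, replicate 2 being the highest of each, and the difference was 0.88 (SE 0.15, 1.84-fold, adjusted p = 0.0486). Idh1 had values of 12.62, 12.67 and 11.95 in knockdown against 11.32, 11.79 and 11.58 in wild-type cells. Knockdown replicate 3 stood well below the other knockdown arrays, though still above the wild-type arrays after LPS. The difference of 0.85 (SE 0.20) did not pass (adjusted p = 0.106). Idh3b, at 12.28, 12.62 and 12.35 against 11.97, 12.28 and 11.94, had knockdown values at or above every wild-type value after LPS. It differed by 0.35 (adjusted p = 0.248, paired 0.0456). Idh3g, at 12.24, 12.39 and 12.26 in knockdown cells, differed by 0.27 (adjusted p = 0.134), again without overlap, and Idh3a by 0.05 (adjusted p = 0.889).

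Mdh2 was the member that was lower in knockdown cells. Its values there were 11.64, 11.91 and 11.75, against 12.38, 12.56 and 12.35 in wild-type cells after LPS. They lay below all 6 wild-type values, stimulated or not. Mdh2 was 1.59-fold lower (log2 difference -0.67, SE 0.11, adjusted p = 0.0476), by -0.75, -0.64 and -0.61 in the 3 numbered pairs. Mdh1, its cytosolic counterpart, had a difference of 0.31 (SE 0.13, adjusted p = 0.352), with values of 10.95, 11.42 and 11.14 in knockdown cells.

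The other pyruvate and TCA genes did not pass. Pdha1, the catalytic subunit that pyruvate dehydrogenase kinases phosphorylate, had the smallest p among them (difference 0.32, SE 0.07, adjusted p = 0.0853), and its knockdown values were all above the wild-type ones. Pdk3 had values of 10.92, 11.04 and 10.62 in knockdown against 11.29, 11.46 and 11.29 in wild-type cells, separate in all arrays, and a difference of -0.49 (adjusted p = 0.224). Pdk2 had values of 8.04, 8.67 and 7.56 in knockdown cells, around the wild-type ones (difference 0.33, SE 0.26, adjusted p = 0.635). Fh1, at 10.41, 10.49 and 10.50, differed by 0.28 (adjusted p = 0.468), and Suclg1, at 10.20, 10.21 and 10.29, by 0.10 (adjusted p = 0.702). Acod1 had values of 14.02, 14.11 and 14.05 in knockdown cells, within 0.12 of the wild-type array of the same number, and its fitted difference of -0.07 has an interval of -1.93 to 1.80, which the spread of the unstimulated arrays widens.

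In glycolysis 0 of 17 genes differed between knockdown and wild-type cells by limma, with 1 above and 2 below at a raw p under 0.05 and 0 in the paired fit. Of all genes 7.32% lay above and 5.79% below at that raw p. The 1 above was Hk1 (0.22, adjusted p = 0.181), whose second probe set read -0.17. Hk2 had values of 10.71, 10.73 and 10.93 in knockdown cells, at or below the wild-type LPS arrays, and a difference of -0.17 (95% interval -0.45 to 0.12). Pfkl, at 10.33, 10.78 and 10.39, differed by -0.15 (interval -0.69 to 0.39), and Pfkfb3, at 10.01, 10.30 and 10.34, by -0.01 (interval -0.58 to 0.57). Both ranges overlapped those of wild-type cells. Hk3 had values of 9.75, 9.21 and 9.71 in knockdown against 10.01, 10.46 and 10.03 in wild-type cells. These did not overlap, and replicate 2 differed most, with pair differences of -0.26, -1.25 and -0.32 (fitted difference -0.61, SE 0.17, adjusted p = 0.152). Aldoc, at 9.58, 9.53 and 9.07, had a difference of -0.70 (adjusted p = 0.443). Pkm and Ldha had values of 12.11, 11.89 and 11.97, and of 13.18, 13.39 and 13.29, with differences of -0.13 and 0.12 (adjusted p = 0.748 and 0.636). Pfkfb4 lay at 9.06, 9.80 and 9.12, and its difference of 0.09 turned to -0.15 without knockdown replicate 2.

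Of the 6 pentose phosphate genes 0 passed by limma, with 2 above and 0 below at a raw p under 0.05, beside the same 7.32% and 5.79% of all genes, and 0 in the paired fit. Rpia had values of 9.26, 9.72 and 9.35 in knockdown against 8.80, 8.97 and 8.96 in wild-type cells. The groups were separate and the difference was 0.54 (SE 0.13, 1.45-fold, adjusted p = 0.108). Tkt had a difference of 0.20 (adjusted p = 0.25), and Taldo1, at 10.07, 10.06 and 10.09, of 0.15 (adjusted p = 0.551).

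Over the 47 genes the knockdown values stood wholly above the wild-type LPS values in 14 and wholly below in 5, while 8.21% and 8.38% of all genes did so. The 3 calls were close to the threshold. Mdh2 lost its call without any single array of these groups (adjusted p 0.0637 to 0.154), with differences of -0.74 to -0.60. Idh2 lost its call without knockdown replicate 1 or 3 or wild-type LPS replicate 1 or 3, and Suclg2 without knockdown replicate 3 or wild-type LPS replicate 1 or 3 (adjusted p up to 0.176 and 0.0927).

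**Figure D4:**
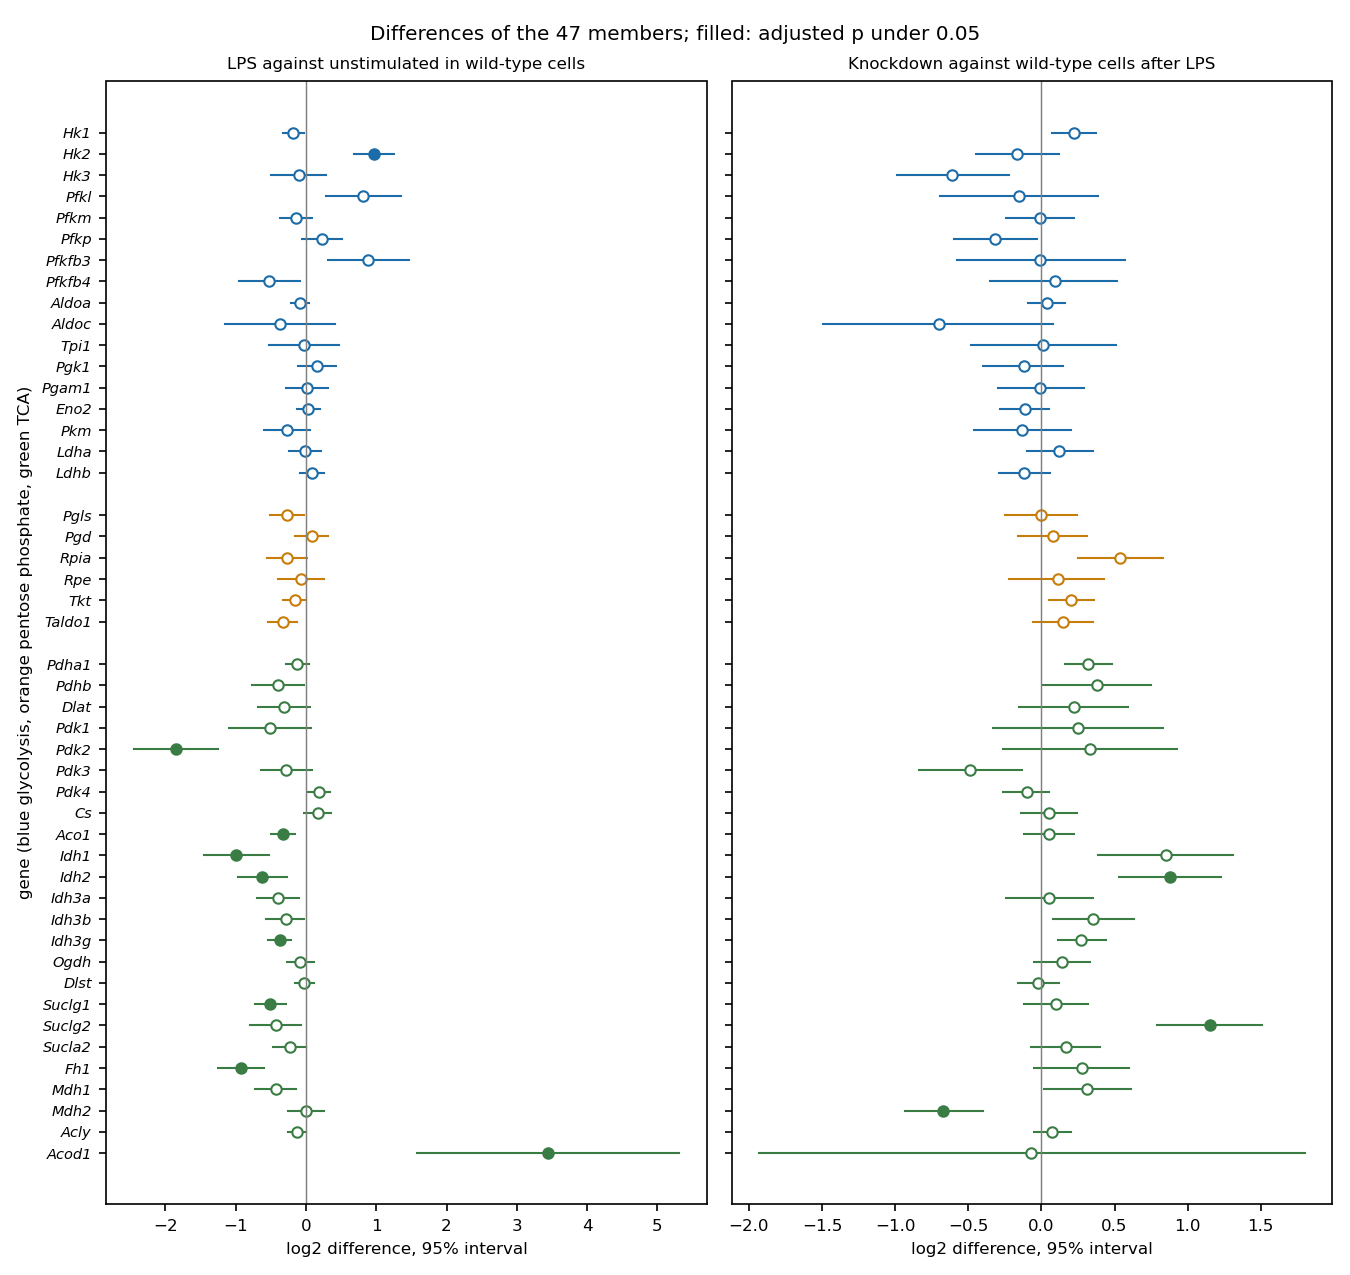
Log2 difference of each of the 47 genes with its 95% interval from the limma fit, after LPS in wild-type cells (left) and in knockdown against wild-type cells after LPS (right); filled points have an adjusted p under 0.05, and the horizontal scales differ. On the left the filled points are Hk2 and Acod1 above 0 and 7 TCA genes below it, and on the right Idh2 and Suclg2 above 0 and Mdh2 below it.

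The third comparison, of knockdown cells given LPS with wild-type cells left unstimulated, does not use the wild-type LPS arrays. It sets LPS and knockdown together against neither, and it shares the unstimulated arrays with the first comparison and the knockdown arrays with the second. Of the 47 genes 3 were higher and 7 lower, where 4.23% and 6.64% of all genes passed. With arrays paired by number these were 5 and 7, where 5.62% and 8.65% of all genes passed. Groups were separate in 8 genes upwards and 11 downwards, as in 12.2% and 15% of all genes. Cell type markers passed here too: Irf4 (-2.38, adjusted p = 0.0377) and Irf8 (-1.12, adjusted p = 0.011) of the dendritic cell list, Csf1r (-0.64, adjusted p = 0.0207) and Trem2 (-0.72, adjusted p = 0.00261) of the macrophage list and Kit (-2.76, adjusted p = 0.00269) of the mast cell list were lower. Cd14 (1.86, adjusted p = 0.0151) of the macrophage list and Mki67 (2.15, adjusted p = 0.00633) of the proliferation list were higher. The part of these markers in the results was not tested. In glycolysis Hk2 was higher (0.80, SE 0.12, adjusted p = 0.00584) and Hk3 lower (-0.71, SE 0.17, adjusted p = 0.0312), with 3 knockdown values of Hk3 below the unstimulated 10.31, 10.33 and 10.17. Pfkfb3 was at 0.88 (adjusted p = 0.0615, paired 0.0191), Pfkl at 0.66 (adjusted p = 0.122, paired 0.0211) and Aldoc at -1.07 (adjusted p = 0.0923, paired 0.021). No pentose phosphate gene passed, and 0 lay above and 1 below at a raw p under 0.05, as did 9.24% and 13.8% of all genes.

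Among the TCA genes, Suclg2 (0.72, SE 0.16, adjusted p = 0.0226; its second probe set 0.61, adjusted p = 0.0779 among all probe sets, against 0.0367 for the one used) and Acod1 (3.38, SE 0.81, adjusted p = 0.0333) were higher. Pdk2 was lower by a log2 difference of -1.52 (adjusted p = 0.00884), Fh1 by -0.65 (adjusted p = 0.0238), Suclg1 by -0.41 (adjusted p = 0.0293), Mdh2 by -0.67 (adjusted p = 0.00877) and Aco1 by -0.28 (adjusted p = 0.0481, paired 0.0719). Pdk3 was lower as well (-0.77, SE 0.16, adjusted p = 0.0179), and its unstimulated values were 11.79, 11.30 and 11.80. For the isocitrate dehydrogenases the differences were -0.14 for Idh1 (interval -0.60 to 0.32), 0.26 for Idh2 (interval -0.09 to 0.61), -0.34 for Idh3a, 0.06 for Idh3b and -0.10 for Idh3g, and none passed (adjusted p from 0.15 to 0.87). Without knockdown replicate 3, Idh1 was at 0.10. Members higher in this comparison numbered 1 without knockdown replicate 3 or without unstimulated replicate 1 or 3, and 5 in the paired fit. Hk2, Pdk2 and Mdh2 passed whichever array was left out, and each of the other 7 lost its call without at least 3 of the 6 arrays, knockdown replicate 3 and unstimulated replicates 1 and 3 among them. Those lower numbered 4 without knockdown replicate 1 and 2 without knockdown replicate 3 or without unstimulated replicate 1 or 3. The shares of all genes called without these arrays are not given here.

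Further genes of these pathways were read from lists of related enzymes and regulators, to be set beside the 3.99% of all genes that rose and 6.86% that fell. Of 22 measured genes of glycolysis, sugar entry and glycogen, 0 rose and 5 fell after LPS in wild-type cells. Pfkfb2, another bifunctional phosphofructokinase regulator, fell to 49.9% of its unstimulated level (adjusted p = 0.00437). The glycogen phosphorylases Pygl (-0.71, adjusted p = 0.0144) and Pygb (-0.69, adjusted p = 0.0141) fell too. G6pc3, a glucose 6-phosphatase (-0.53, adjusted p = 0.0411), and Khk, the ketohexokinase (-0.42, adjusted p = 0.0315), were the others. Glycolytic enzymes of this list such as Hkdc1, Eno3 and Pklr did not pass. Of 8 further pentose phosphate genes 1 fell, Shpk, the sedoheptulose kinase (-0.96, adjusted p = 0.00465). Of 19 further TCA and pyruvate genes 1 rose, Dld, the dihydrolipoamide dehydrogenase shared by the 2-oxoacid dehydrogenase complexes (0.47, adjusted p = 0.0162), and 1 fell, Pdp1, the phosphatase that reverses the action of the Pdk kinases (-1.08, SE 0.09, adjusted p = 0.000595). The succinate dehydrogenase genes Sdha, Sdhb, Sdhc and Sdhd had differences of -0.34, -0.26, -0.28 and -0.48, which passed in the paired fit alone (paired adjusted p from 0.0151 to 0.0462). So did Slc25a11, the mitochondrial 2-oxoglutarate carrier, at -0.31 (adjusted p = 0.126, paired 0.0276), and Gys1, the glycogen synthase, at 0.43 (adjusted p = 0.19, paired 0.0464). Of 19 hypoxia response genes and regulators of glycolysis or mitochondria 0 rose and 1 fell. The latter was Ppargc1b, a coactivator of mitochondrial gene expression (-0.63, adjusted p = 0.0197).

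In knockdown against wild-type cells 0 genes of these 4 lists passed by limma. At an unadjusted p under 0.05, 2 glycolysis and sugar entry genes, 1 pentose phosphate gene, 6 TCA genes and 1 regulator were higher. In that order 3, 0, 1 and 3 were lower, beside 7.32% of all genes higher and 5.79% lower. The paired fit called Dld higher (0.47, adjusted p = 0.0693, paired 0.0297) and Egln2, an oxygen-sensing prolyl hydroxylase, lower (-0.43, adjusted p = 0.102, paired 0.0396). Against wild-type cells left unstimulated, knockdown cells given LPS had higher Gys1 (0.84, adjusted p = 0.025), Prps1, which makes phosphoribosyl pyrophosphate (0.55, adjusted p = 0.035), Dld (0.93, adjusted p = 0.000942) and Slc25a1, the mitochondrial citrate carrier (0.38, adjusted p = 0.0394). They had lower Pfkfb2 (-1.05), Pygb (-0.76), Shpk (-1.05), Sdhb (-0.56), Pdp1 (-1.28) and Ppargc1b (-1.02), with adjusted p from 0.000267 to 0.00862. The paired fit alone also called lower G6pc3 (-0.46, adjusted p = 0.0644, paired 0.00966), Pygl (-0.40, adjusted p = 0.111, paired 0.0257), H6pd, which runs the oxidative steps in the endoplasmic reticulum (-0.45, adjusted p = 0.248, paired 0.0332), and Egln2 (-0.33, adjusted p = 0.0752, paired 0.0303).

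For 6 of the 47 genes, Hk1, Pgk1, Pgam1, Pkm, Ldhb and Suclg2, more than 1 probe set named the gene alone. Their probe sets can read near-identical copies elsewhere in the genome, which the deposited values do not separate. The 3 probe sets of Pgk1 gave differences of 0.14 to 0.16 after LPS, and those of Pgam1 of -0.01 to 0.02. In both genes some of these probe sets had the same values on every array, so they are not independent readings. The second probe sets of Pkm and Ldhb read -0.17 and 0.02 after LPS, where those used read -0.27 and 0.09. For Suclg2 the second probe set missed the threshold in both knockdown comparisons, as given above. Which of its 2 probe sets reads the gene rather than a copy was not tested. For Hk1 the probe sets differed in sign between knockdown and wild-type cells: its second one read -0.29 after LPS and -0.17 in knockdown against wild-type cells, where the one used read -0.18 and 0.22, and neither passed in either comparison.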

How the data were processed

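RNA of 9 mouse dendritic cell cultures was measured on Affymetrix arrays, and the authors deposited log2 values normalized by RMA, per the submitters' processing notes. Array medians lay between 7.217 and 7.315. The number of arrays limits the precision, and these values keep no background signal. Of 35556 probe sets, 21789 named 1 gene in the platform annotation, 1621 named several and 12146 were not listed there. The brightest probe set of each of 19938 genes entered limma 3.58.1 in R 4.3.3, fitted to all 3 groups with lmFit and eBayes, and p-values are two-sided and Benjamini-Hochberg adjusted over all genes. The fit was tested on simulated data with independent noise on each array, which does not cover arrays that deviate together. Groups came from the labels. Same-numbered arrays deviated together, with correlations of 0.14 to 0.48 in all 9 pairs, against -0.41 to 0.25 in the 18 pairs of different number, so a paired fit, with that number as a block, is given where it changes a call. This pairing comes from the values and the shared numbers. Values on each array are printed for genes called in any comparison or its paired fit and for Hk2, Pfkfb3, Pkm, Ldha, Idh1 and Acod1, and listed pathway genes are named where called. The array values of Rpia and the differences of other uncalled genes were added after their values were seen. Alternatives changed the normalization, the filter on dim genes, the arrays and the genes tested. The genes and lists were chosen with earlier results of these data known.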

Additional observations from a re-analysis of the deposited data

How the results depend on the processing

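Counts of called genes among the 47 varied with the processing, and the cause was not tested. Apart from the replicate block, the share of all genes called in each setting is not given here. A change in calls over all genes therefore cannot be told apart from a change in the members. After LPS in wild-type cells, the 2 higher genes became 1 when p-values were adjusted over all deposited probe sets or only the 2 groups compared were fitted, and 4 without the dimmest 25% of genes or with the replicate block. The 7 lower ones became 11 with the replicate block. Leaving out 1 array gave 1 to 4 higher and 2 to 13 lower. For knockdown against wild-type cells, the 2 higher and 1 lower genes became 1 and 0 when adjusted over all probe sets or with array medians centred, and 0 and 0 when only those groups were fitted. Leaving out 1 array gave 0 to 3 higher and 0 lower. For knockdown after LPS against unstimulated cells, the 3 higher genes became 5 with the replicate block, and leaving out 1 array gave 1 to 4 higher and 2 to 7 lower. Of 924 values of 22 named genes, 799 kept their direction and side of the threshold, 86 lost and 27 gained a call, and 12 turned sign, none of them called. Leaving out 1 array moved Ldha from -0.08 to 0.07 and Mdh2 from -0.08 to 0.11 after LPS, Pfkfb3 from -0.12 to 0.20 and Pfkfb4 from -0.15 to 0.22 between knockdown and wild-type cells, and Idh1 from -0.26 to 0.10 and Idh3b from -0.04 to 0.13 between knockdown and unstimulated cells. Mdh2 turned to 0.00 after LPS with quantile normalization. Besides the genes named with it, the replicate block changed no call among the 47. Only Pdk4 was among the dimmest 25% of genes.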
